A study of Homo sapiens with 12 samples.

Results

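The RPMI8226 myeloma line answered the BET inhibitor JQ1 differently from the KMS-11 and KMS-12 lines, and that difference is described here gene by gene. For each gene the change in RPMI8226 (JQ1 minus DMSO, log2) was taken, and the mean of the changes in KMS-11 and KMS-12 was subtracted from it; changes and differences are log2 values throughout. The contrast used 12 of the 12 libraries of the series. The 6 groups were KMS-11, KMS-12 and RPMI8226, each given 1 µM JQ1 for 72 h or DMSO at an equal volume, with 2 libraries per group. All lines are established human multiple myeloma lines labelled WT, so by the labels the groups differ in line and treatment. The design text spells KMS-11 as KMS-111, and the labels do not say which KMS-12 subline was used. Libraries were stranded total RNA after removal of ribosomal RNA. By the design text the study asked how drugs regulate genes that become active in myeloma, and the comparison asks which of its effects were not shared by RPMI8226. Nothing in the labels tells whether a pair of replicates was grown separately. The p-values therefore reflect library-to-library spread alone, and that spread may be technical.

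JQ1 blocks the bromodomains of BET proteins, which read acetylated histones and bring elongation factors to active genes. Growth arrest of myeloma cells is among its known effects. Proliferating cells switch on their genes in waves: E2F factors, held back by the retinoblastoma family until cyclin-dependent kinases act, drive the genes of DNA synthesis before and during S phase, while B-MYB, FOXM1 and the MuvB complex drive the mitotic genes of G2 and M phase, often through a promoter element named CHR. Myeloma cells are malignant plasma cells, and IRF4, PRDM1 and the unfolded protein response belong to the plasma cell programme.

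Depth ran from 15424512 to 27366499 counts per library, and levels are given as CPM, counts scaled to a common library total, with TMM-scaled library sizes. In a single library a floor of 3 counts, the most that 0 reads allow, equals 0.107 to 0.178 CPM (counting error only). Plasma cell markers were present in every group, with a summed level of 1457 to 3997 CPM over 6 genes. Of 10 myeloid markers the summed level was 26.5 to 29.4 CPM in RPMI8226 with DMSO. It was 4.03 to 6.47 with JQ1 and at most 4.14 in the KMS libraries. ITGAM carried most of the RPMI8226 sum. CSF1R, CD68 and S100A9 were also present there with DMSO and lower with JQ1. MPO, S100A8 and FCGR3A had no read in any RPMI8226 library. Of 5 myeloid markers tested, JQ1 lowered 4 in RPMI8226. With DMSO, T and NK cell markers summed to 48.1 to 52.2 CPM in RPMI8226, mostly NCAM1, and at most 14.8 in the KMS lines. Stromal, epithelial and endothelial markers summed to 82.4 to 86.5 CPM, with KRT18 highest, and at most 41.6 in the KMS lines. The RNA MALAT1 took 3.61% to 9.01% of the counts of the DMSO libraries, 14.5% to 25.8% of those of the KMS libraries with JQ1, and 6.31% to 6.57% of those of RPMI8226 with JQ1. With library size alone in place of TMM, the median of all genes in the contrast shifted by 0.48, so changes are stated relative to the TMM scale. In bulk RNA, fewer cells in a phase of the cycle and less RNA per cell cannot be told apart.

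In all, 23493 genes were tested. The contrast was called higher in RPMI8226 for 2012 genes (8.56%) and lower for 1652 (7.03%) at a Benjamini-Hochberg adjusted p under 0.05 in edgeR's quasi-likelihood test. Scaled by library size alone, the split was 7214 higher and 574 lower. The count of higher genes was 1329 without RPMI8226 DMSO replicate 2, and that of lower genes 1082 without RPMI8226 DMSO replicate 1. A value above 0 means a larger rise or a smaller fall in RPMI8226, so the responses behind it have to be read line by line. JQ1 raised 4064 genes (17.3%) and lowered 4976 (21.2%) in KMS-11, raised 4757 (20.2%) and lowered 6047 (25.7%) in KMS-12, and raised 3195 (13.6%) and lowered 4382 (18.7%) in RPMI8226. Called in 1 direction in every line were 1420 genes that rose and 1497 that fell.

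A mean of both KMS lines can hide a split between them, so the response of RPMI8226 was also tested against each line. Against KMS-11, 1575 genes (6.70%) were higher and 1110 (4.72%) lower, and against KMS-12, 2901 (12.3%) higher and 2604 (11.1%) lower. A gene is called apart here where the contrast and both pairwise differences passed the test with the same sign. This held for 801 genes with the RPMI8226 response higher (3.41%; 459 without RPMI8226 DMSO replicate 2 and 510 without DMSO replicate 1) and 479 with it lower (2.04%; 305 without RPMI8226 DMSO replicate 1). By the same definition KMS-11 was apart from the other lines for 351 genes higher (1.49%) and 495 lower (2.11%), and KMS-12 for 1539 higher (6.55%) and 1333 lower (5.67%). RPMI8226 therefore did not have the largest number of such genes among the lines.

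Among the 801 genes apart and higher, 381 were called in 1 direction in both KMS lines and not called in RPMI8226. A further 125 were called in opposite directions, with a fall in both KMS lines and a rise in RPMI8226 (0.532% of the genes tested), and 123 moved one way in every line and least in RPMI8226. Of the 479 apart and lower, 165 were called in both KMS lines but not in RPMI8226, 73 in RPMI8226 but in neither KMS line, and 49 in opposite directions, rising in both KMS lines and falling in RPMI8226 (0.209%). These opposite counts moved with the libraries. With a replicate block within each line they were 208 and 75. Leaving out RPMI8226 DMSO replicate 1 gave 53 with the RPMI8226 response higher, DMSO replicate 2 gave 58, JQ1 replicate 1 gave 73 and JQ1 replicate 2 gave 79, while leaving out KMS-11 DMSO replicate 1 gave 272 and replicate 2 gave 198. The lower count was 29 without RPMI8226 JQ1 replicate 2.

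Of 295 cell cycle genes tested from 12 lists, 221 were called higher in the contrast and 5 lower, beside 8.56% and 7.03% of all genes. The 5 were CCND1, CDKN1A, RBL2, ANAPC5 and CAD. Of the genes apart and higher, 183 of 801 were in a cell cycle list, against 1 of 479 apart and lower. With opposite calls it was 60 of 125 and 0 of 49, beside 295 of all 23493 genes tested. That share is small enough that 0 of 49 lies near it. Of the genes apart, 595 of the higher and 439 of the lower were in no list. The lists held at most 890 of the 23493 genes tested, so being in no list is no trait of the genes apart. The lists were chosen with earlier results of these data known, so the counts describe the lists and support no choice of them.

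**Figure D1:**
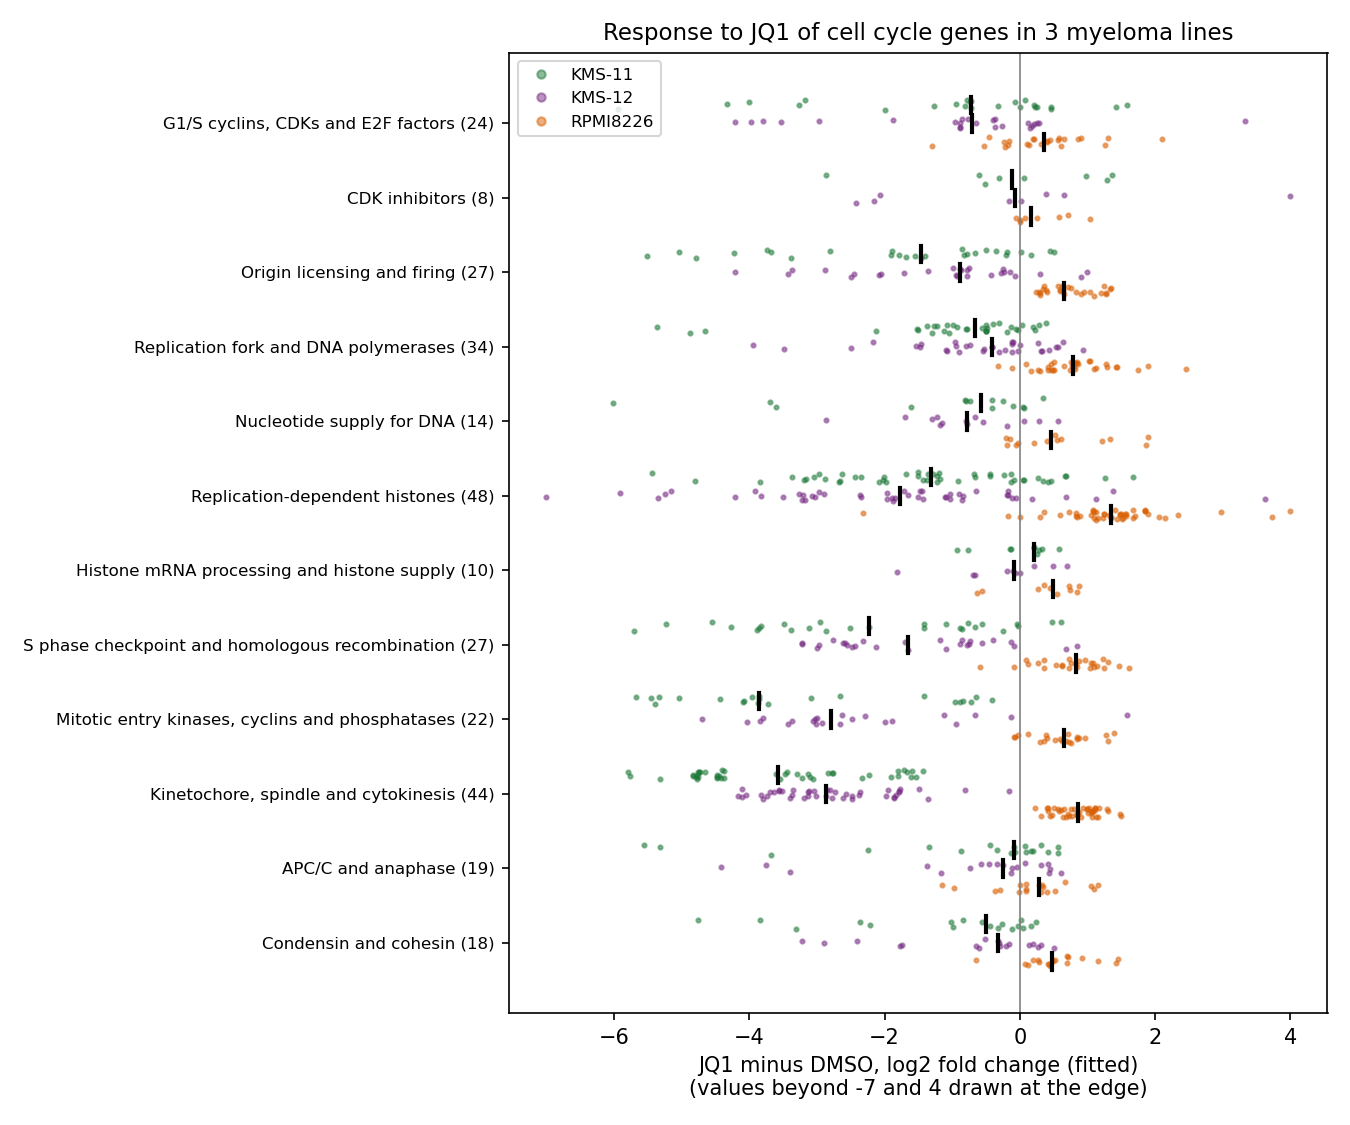
Each point is a gene of a cell cycle list (number tested in brackets), placed by its fitted JQ1 minus DMSO log2 fold change in KMS-11 (green), KMS-12 (purple) or RPMI8226 (orange); black bars are list medians and values beyond the axis are drawn at its edge. For kinetochore, spindle and cytokinesis genes the RPMI8226 median is 0.86, beside -3.57 for KMS-11 and -2.86 for KMS-12.

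Promoter sequences are shown for 6 genes on which the cell cycle results turn, because the early and the late wave carry different known elements. The E2F genes E2F1 and E2F2, the helicase gene MCM6 and the sliding clamp gene PCNA stand for the early wave. The proliferation marker gene MKI67 and the kinetochore gene ZWINT stand for the late one. Each run is the 200 bases before a RefSeq transcription start (GRCh38.p14), written along the gene, which lies on the minus strand in every case. Capitals mark matches on either strand to the E2F spellings TTTGGCGC, TTTCGCGC, TTTCCCGC and TTTGCCGC in the first 4 and to the CHR letters TTTGAA in the last pair. The genes were chosen after their values were seen, with a start that holds a match.
E2F1: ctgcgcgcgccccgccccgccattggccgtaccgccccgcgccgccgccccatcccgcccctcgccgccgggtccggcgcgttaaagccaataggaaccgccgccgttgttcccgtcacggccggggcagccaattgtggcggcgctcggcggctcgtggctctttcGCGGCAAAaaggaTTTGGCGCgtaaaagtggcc
E2F2: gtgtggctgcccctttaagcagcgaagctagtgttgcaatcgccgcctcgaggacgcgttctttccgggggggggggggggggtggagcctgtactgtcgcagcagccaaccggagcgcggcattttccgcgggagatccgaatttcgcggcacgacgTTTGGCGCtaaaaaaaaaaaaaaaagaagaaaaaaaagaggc
MCM6: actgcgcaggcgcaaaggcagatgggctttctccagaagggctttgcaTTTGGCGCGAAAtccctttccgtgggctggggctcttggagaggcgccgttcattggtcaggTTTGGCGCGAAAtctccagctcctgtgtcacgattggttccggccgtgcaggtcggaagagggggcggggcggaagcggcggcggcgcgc
PCNA: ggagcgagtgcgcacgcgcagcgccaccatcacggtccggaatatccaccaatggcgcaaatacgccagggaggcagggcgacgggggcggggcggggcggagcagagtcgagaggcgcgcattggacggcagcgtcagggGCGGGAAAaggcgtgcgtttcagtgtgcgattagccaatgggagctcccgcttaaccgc
MKI67: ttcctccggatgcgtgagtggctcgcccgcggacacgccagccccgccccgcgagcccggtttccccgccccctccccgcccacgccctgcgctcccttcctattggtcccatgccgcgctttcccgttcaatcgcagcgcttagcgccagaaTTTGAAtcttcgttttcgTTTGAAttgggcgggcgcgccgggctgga
ZWINT: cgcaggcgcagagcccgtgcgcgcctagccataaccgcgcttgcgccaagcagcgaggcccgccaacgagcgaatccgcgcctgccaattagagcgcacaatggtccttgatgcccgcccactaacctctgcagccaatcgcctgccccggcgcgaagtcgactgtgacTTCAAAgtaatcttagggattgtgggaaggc
E2F1 is shown from chr20:33686386-33686585, E2F2 from chr1:23531234-23531433 and MCM6 from chr2:135876444-135876643. PCNA is shown from chr20:5126623-5126822, MKI67 from chr10:128126424-128126623 and ZWINT from chr10:56361260-56361459. Counted back from the start, MCM6 held E2F letters at -152 to -145 and again at -90 to -83, each overlapped by a match on the opposite strand. E2F2 held them at -42 to -35, and MKI67 held CHR letters at -47 to -42 and at -29 to -24.

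An E2F spelling occurred in the 250 bases before 2.79% of 35116 starts in the RefSeq table and CHR letters before 13.3%. Before the starts of genes tested the shares were 3.89% and 9.68%. For origin genes they were 26.7% and 0% of 30 starts, and for replication fork genes 26.3% and 7.89% of 38. The order was the other way round for mitotic entry genes, at 3.23% and 35.5% of 31 starts, and for kinetochore genes, at 10% and 50% of 40. Other lists did not follow their phase: S phase checkpoint and recombination genes held an E2F spelling in 3.12% and CHR letters in 6.25% of 32 starts, and replication-dependent histone genes in 16.9% and 33.9% of 59. Starts of the genes with opposite calls and the RPMI8226 response higher held an E2F spelling in 17.7% of 141 and CHR letters in 13.5%. For genes apart and lower the shares were 2.41% and 10.4% of 539. With only the spellings TTTGGCGC and TTTCGCGC the shares were 0.968% of all starts, 10% for origin genes, 15.8% for fork genes and 12.1% for the genes with opposite calls and the RPMI8226 response higher. A match is a description of letters and not a bound site, and these shares describe the same genes as the counts above.

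E2F factors, G1 cyclins and their kinases decide entry into S phase. Of 24 genes in that list, 13 were higher in the RPMI8226 contrast and 2 lower, with a median of 0.64, against 0.02 for all genes tested. Gene positions are GENCODE 29 spans on GRCh38. In RPMI8226 9 of them rose and 3 fell, while JQ1 lowered 14 in either KMS line. E2F2 (ENSG00000007968, chromosome 1, 23506430 to 23531220, minus strand), an activator of S phase genes, measured 44.2 and 109 CPM with DMSO and 3.80 and 5.77 with JQ1 in KMS-11, 29.1 and 32 against 1.26 and 2.05 in KMS-12, and 40.9 and 38.1 against 102 and 94.1 in RPMI8226. The KMS libraries with JQ1 were the lowest of the 12 and the RPMI8226 libraries with JQ1 lay above both of their DMSO controls. The difference in E2F2 response was 5.42 (SE 0.56; edgeR, Benjamini-Hochberg adjusted p = 0.00091). E2F1, the other activator shown above, changed by 0.91 in RPMI8226, beside -2.0 in KMS-11 and -2.97 in KMS-12, a difference of 3.39 (SE 0.33; edgeR, Benjamini-Hochberg adjusted p = 5.6e-05).

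Cyclin E1, the partner of CDK2 at the G1/S boundary, differed by 2.63 (SE 0.36; edgeR, Benjamini-Hochberg adjusted p = 7.12e-05). CCNE1 rose by 2.10 in RPMI8226. CDC25A, the phosphatase that activates CDK2, differed by 4.51 (SE 0.39; edgeR, Benjamini-Hochberg adjusted p = 7.33e-06) and fell in both KMS lines. RBL1, the pocket protein p107 and itself an E2F target, had opposite calls (KMS-11 -0.74, KMS-12 -1.87, RPMI8226 0.87), and its difference was 2.17 (SE 0.20; edgeR, Benjamini-Hochberg adjusted p = 1.61e-06). Cyclin D1, which starts the phosphorylation of the retinoblastoma protein, went against this direction. CCND1 measured 6.46 and 8.17 CPM in the KMS-11 controls and 22.7 and 21.1 with JQ1, 619.6 and 548 and then 331 and 316 in KMS-12, and 30.8 and 29.5 and then 13.4 and 11.2 in RPMI8226. Its level with DMSO was far higher in KMS-12 than in the other lines, and JQ1 raised it in KMS-11 and lowered it in KMS-12 and RPMI8226. The contrast was -1.66 (SE 0.15; edgeR, Benjamini-Hochberg adjusted p = 7.18e-07), but the difference from KMS-12 alone, -0.44, did not pass.

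CDKN1A, the CDK inhibitor p21, was the other of the lower calls with a split between the KMS lines. It measured 126 and 97.7 CPM with DMSO and 125 and 112 with JQ1 in RPMI8226, against 33.6 and 52.2 and then 31.2 and 25.1 in KMS-11 and 11 and 12.2 and then 256 and 259.9 in KMS-12. In KMS-12 the JQ1 libraries lay far above their controls, whereas in RPMI8226 the DMSO and JQ1 ranges overlapped. The contrast was -1.86 (SE 0.24; edgeR, Benjamini-Hochberg adjusted p = 0.000335), with a difference of -4.40 from KMS-12 and 0.69 from KMS-11, and the latter did not pass. CDKN3, a phosphatase of CDK2 listed with the inhibitors, was higher by 3.10 (SE 0.44; edgeR, Benjamini-Hochberg adjusted p = 0.000138). CDKN1B, the inhibitor p27, gave -0.40 and did not pass (adjusted p = 0.0952 in edgeR); it passed with the replicate block within lines (0.00906) and without KMS-11 DMSO replicate 2 (0.00692) or RPMI8226 JQ1 replicate 1 (0.0315).

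Origin licensing loads the MCM helicase onto DNA and firing starts it. Of 27 origin genes, 22 were higher in the contrast, with a median of 1.84. JQ1 raised 18 of them in RPMI8226 and lowered 20 in either KMS line. MCM6 (ENSG00000076003, chromosome 2, 135839626 to 135876426, minus strand), a subunit of the helicase, measured 39 and 51.4 CPM with DMSO and 16.9 and 17.3 with JQ1 in KMS-11, 107 and 112 against 41.7 and 44.3 in KMS-12, and 109.6 and 122 against 137 and 157 in RPMI8226. In each line the DMSO and JQ1 libraries did not overlap, with JQ1 below in the KMS lines and above in RPMI8226. Its difference was 1.72 (SE 0.15; edgeR, Benjamini-Hochberg adjusted p = 4.57e-07). CDC6, which loads the helicase, gave 40.5 and 51.9 CPM in the KMS-11 controls and 3.66 and 3.25 with JQ1, 26.9 and 28 and then 5.30 and 7.94 in KMS-12, and 29.1 and 36.3 and then 50.6 and 52.8 in RPMI8226. The direction was again down in the KMS lines and up in RPMI8226, with a difference of 3.55 (SE 0.21; edgeR, Benjamini-Hochberg adjusted p = 9.74e-09). MCM2, MCM3 and GINS2, the first 2 helicase subunits and the last a part of its active form, also had opposite calls, with differences of 2.15, 1.59 and 3.60. ORC1, of the origin recognition complex, differed by 3.27 but was not called in RPMI8226 itself. In all, 12 of the 27 had opposite calls.

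At the replication fork, 28 of 34 genes were higher, with a median of 1.22, and 24 of 34 rose in RPMI8226. PCNA, the sliding clamp, measured 50.7 and 48.3 CPM with DMSO and 97.8 and 119 with JQ1 in RPMI8226, against 28 and 49.5 and then 26.8 and 25.9 in KMS-11 and 52.9 and 54.6 and then 49.7 and 49.9 in KMS-12. The RPMI8226 libraries with JQ1 were above all others, while the KMS-12 libraries lay within a narrow range and the KMS-11 controls differed from each other. The clamp's difference was 1.46 (SE 0.25; edgeR, Benjamini-Hochberg adjusted p = 0.00216), and its changes of -0.55 and -0.11 in KMS-11 and KMS-12 did not pass. FEN1, the flap nuclease of lagging strand synthesis, had opposite calls with a difference of 2.03 (SE 0.21; edgeR, Benjamini-Hochberg adjusted p = 9.49e-06). CHAF1A, which places histones on new DNA, differed by 3.18 (SE 0.25; edgeR, Benjamini-Hochberg adjusted p = 1.51e-06). UHRF1, which carries DNA methylation over to the new strand, gave 11.3 and 27.9 CPM with DMSO and 0.951 and 0.560 with JQ1 in KMS-11, 8.19 and 10.5 against 1.11 and 2.21 in KMS-12, and 7.25 and 7.48 against 24.5 and 25.1 in RPMI8226. Its KMS libraries with JQ1 held few reads (30 over the lowest group), and the difference was 5.33 (SE 0.53; edgeR, Benjamini-Hochberg adjusted p = 9.94e-05).

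Nucleotide supply followed with 9 of 14 genes higher and 1 lower. The lower one, CAD, was not called in 9 of the 12 fits that leave out a library nor with library size alone. RRM2 (ENSG00000171848, chromosome 2, 10120698 to 10131419, plus strand), the small subunit of ribonucleotide reductase that makes deoxynucleotides, measured 84.9 and 212 CPM in the KMS-11 controls and 2.09 and 2.52 with JQ1, 68 and 78.6 and then 4.69 and 15.6 in KMS-12, and 76 and 68.4 and then 271 and 267 in RPMI8226. Its difference was 6.33 (SE 0.76; edgeR, Benjamini-Hochberg adjusted p = 0.00245). The KMS-12 JQ1 replicates were far apart in RRM2, yet both were below their controls. Thymidine kinase 1 (TK1) had opposite calls and a difference of 3.84.

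Replication-dependent histone genes are transcribed in S phase to package new DNA, and their RNAs lack poly(A) tails, so total RNA libraries can hold them. Of 61 listed, 48 were tested; 36 were higher in the contrast, with a median of 2.96. In RPMI8226 24 rose, whereas 25 fell in KMS-11 and 32 in KMS-12. H3C2 measured 17.6 and 17.3 CPM with DMSO and 63.2 and 62.1 with JQ1 in RPMI8226, against 47.8 and 150.2 and then 2.19 and 2.35 in KMS-11 and 78.5 and 75.1 and then 1.41 and 2.37 in KMS-12. The KMS libraries fell from among the highest to the lowest levels, while both RPMI8226 JQ1 libraries were above their controls. Its difference was 7.24 (SE 0.71; edgeR, Benjamini-Hochberg adjusted p = 0.000879). H2BC13 and H2AC21 had opposite calls and differences of 5.11 and 5.09. Histone genes are near-identical copies, and how shared reads were counted is not given in the sources used here, so values of single copies are uncertain. Of their processing factors 4 of 10 were higher with a median of 0.49, a count that fell to 1 without KMS-12 DMSO replicate 2, KMS-12 JQ1 replicate 1 or RPMI8226 DMSO replicate 1. It was 2 without KMS-11 JQ1 replicate 1, RPMI8226 DMSO replicate 2 or either RPMI8226 JQ1 library, and 9 with library size alone. SLBP, which binds the histone stem-loop, gave 0.99 and did not pass (adjusted p = 0.197 by edgeR's test), but passed with the replicate block within lines (0.000225), in DESeq2 (0.0214) and without KMS-11 DMSO replicate 1 (0.000125) or 2 (0.0141).

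S phase checkpoint and homologous recombination genes guard and repair replicating DNA. Of 27, 24 were higher, with a median of 2.65, and 11 had opposite calls. CHEK1 (ENSG00000149554, chromosome 11, 125625136 to 125676255, plus strand), the checkpoint kinase, measured 14.8 and 22.8 CPM with DMSO and 1.24 and 1.29 with JQ1 in KMS-11, 82.8 and 78.1 against 12.3 and 15.2 in KMS-12, and 20.1 and 19.9 against 36.9 and 36.1 in RPMI8226. Its level with DMSO was highest in KMS-12, and JQ1 left it at 1.24 and 1.29 CPM in KMS-11. The difference of CHEK1 was 4.09 (SE 0.22; edgeR, Benjamini-Hochberg adjusted p = 3.51e-09). BLM, a helicase of recombination, differed by 2.65, and FANCB of the Fanconi core complex by 2.38, with opposite calls for both.

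**Figure D2:**
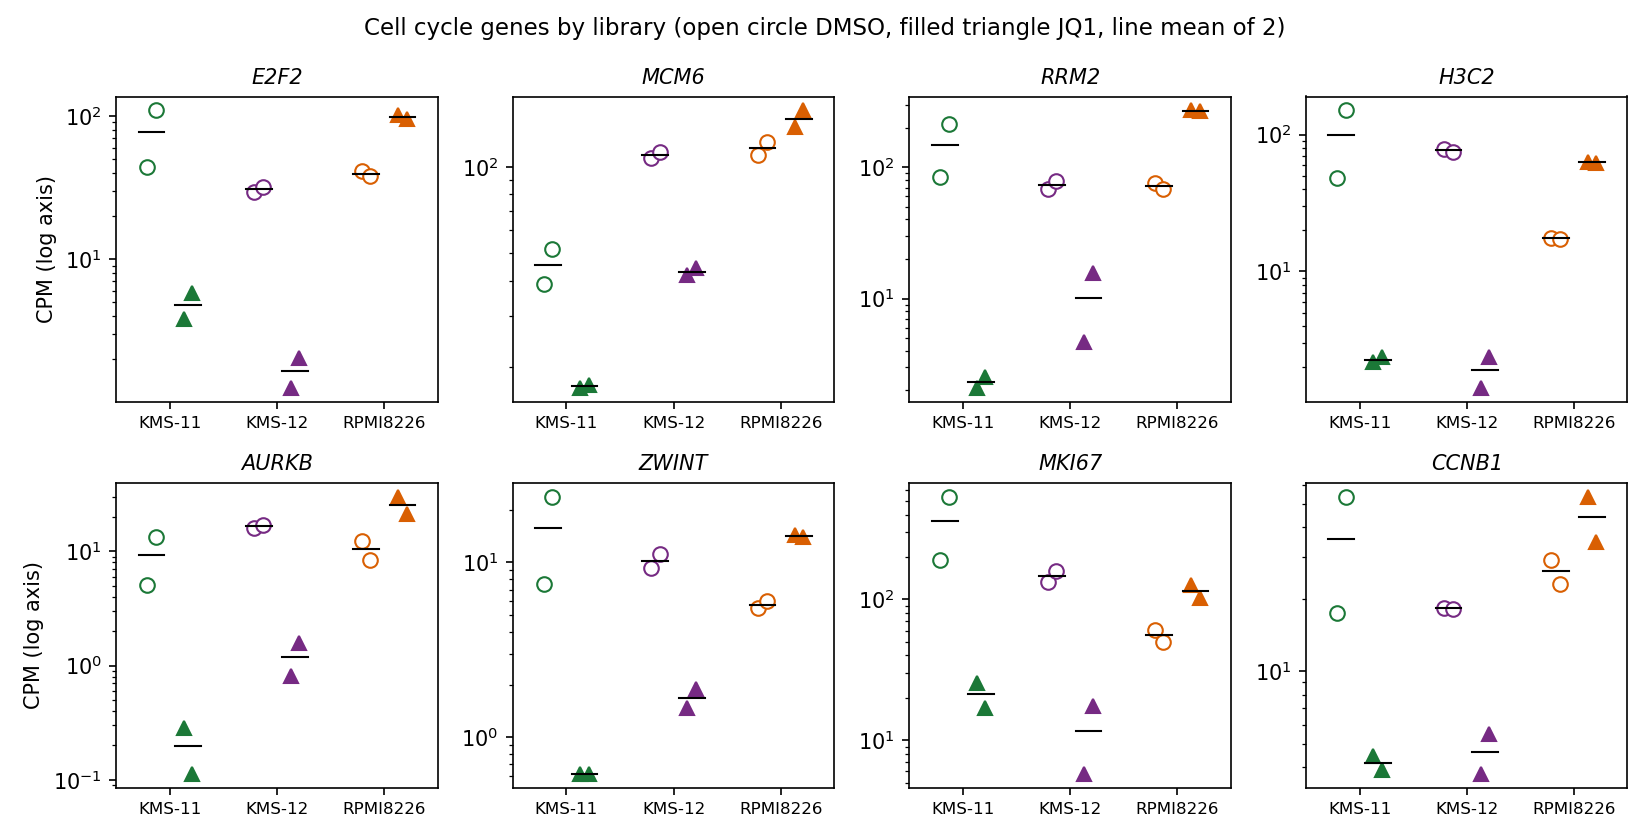
CPM on a log axis in each library for 8 cell cycle genes (E2F2, MCM6, RRM2, H3C2, AURKB, ZWINT, MKI67 and CCNB1); open circles are DMSO, filled triangles JQ1, and lines the mean of 2 libraries. In MCM6 the RPMI8226 libraries with JQ1 stand at 137 and 157 CPM above controls of 109.6 and 122, whereas in both KMS lines JQ1 stands below DMSO.

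The mitotic genes had the largest medians of the 12 cell cycle lists. Of 44 kinetochore, spindle and cytokinesis genes, 44 were higher in the contrast, with a median of 4.23, and of 22 mitotic entry genes 20 were higher, with a median of 4.10. All 44 kinetochore genes fell in KMS-11 and 42 in KMS-12. Only 8 of 44 and 3 of 22 rose in RPMI8226 by the test, although the RPMI8226 medians of 0.86 and 0.66 were near the 0.66 of the origin genes. Replicates of some groups differed in these lists. KMS-11 DMSO replicate 2 exceeded replicate 1 by a median of 1.41 on the log2 scale over the 66 mitotic genes and by 0.65 over the 61 origin and fork genes. KMS-12 JQ1 replicate 2 exceeded replicate 1 by 0.77 and 0.11. The part of that spread in the calls was not tested beyond leaving out libraries.

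MKI67 (ENSG00000148773, chromosome 10, 128096659 to 128126385, minus strand), which codes for the Ki-67 antigen, measured 189 and 536 CPM in the KMS-11 controls and 25.5 and 16.8 with JQ1, 133 and 159 and then 5.75 and 17.4 in KMS-12, and 60.7 and 50.1 and then 127 and 102 in RPMI8226. In the KMS lines both JQ1 libraries lay well below both DMSO libraries, and in RPMI8226 they lay above. The contrast was 4.92 (SE 0.79; edgeR, Benjamini-Hochberg adjusted p = 0.00812), while the change of 1.04 in RPMI8226 did not pass. The call was lost without RPMI8226 DMSO replicate 1 (edgeR, Benjamini-Hochberg adjusted p = 0.0510) or replicate 2 (0.0577). CDK1, the mitotic kinase, differed by 4.77 (SE 0.84; edgeR, Benjamini-Hochberg adjusted p = 0.0109) and was lost in the same settings (0.0508 and 0.0661). Cyclin B1, its partner, gave 29.1 and 23.1 CPM with DMSO and 53.1 and 34.7 with JQ1 in RPMI8226, against 17.4 and 53.4 and then 4.42 and 3.87 in KMS-11 and 18.4 and 18.2 and then 3.73 and 5.47 in KMS-12. Its difference was 3.30 (SE 0.65; edgeR, Benjamini-Hochberg adjusted p = 0.0155), and it was lost without RPMI8226 DMSO replicate 1 (0.0681), DMSO replicate 2 (0.0879), JQ1 replicate 1 (0.0590) or JQ1 replicate 2 of KMS-11 (0.0508). TOP2A, which untangles chromosomes, was higher by 4.68 (SE 0.90; edgeR, Benjamini-Hochberg adjusted p = 0.0167); leaving out RPMI8226 DMSO replicate 1, DMSO replicate 2 or JQ1 replicate 1 gave an edgeR adjusted p of 0.0817, 0.0953 or 0.0562.

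FOXM1, a transcription factor of mitotic genes, measured 24.9 and 70.8 CPM with DMSO and 0.713 and 1.18 with JQ1 in KMS-11, 45.6 and 52.3 against 0.908 and 2.89 in KMS-12, and 17.4 and 15.2 against 24.4 and 18.7 in RPMI8226. Both KMS lines lost most of it, the change of 0.41 in RPMI8226 did not pass, and the difference was 5.59 (SE 0.76; edgeR, Benjamini-Hochberg adjusted p = 0.00364). AURKB, the Aurora kinase of the centromere, had opposite calls. It measured 5.03 and 13.5 CPM in the KMS-11 controls and 0.285 and 0.112 with JQ1, 16.1 and 17.1 and then 0.807 and 1.58 in KMS-12, and 12.4 and 8.48 and then 30.1 and 21.2 in RPMI8226, with only 8 reads over the KMS-11 JQ1 group, and its difference was 5.93 (SE 0.65; edgeR, Benjamini-Hochberg adjusted p = 0.000342). ZWINT, a linker of the kinetochore, gave 5.48 and 6 CPM with DMSO and 14.4 and 14 with JQ1 in RPMI8226, against 7.54 and 23.8 and then 0.618 and 0.617 in KMS-11 and 9.29 and 11.2 and then 1.46 and 1.89 in KMS-12. The difference of ZWINT was 4.94 (SE 0.58; edgeR, Benjamini-Hochberg adjusted p = 0.000331), with opposite calls. CENPK and CENPH of the inner kinetochore had opposite calls too, with differences of 3.14 and 2.51, and MAD2L1, of the spindle checkpoint, was higher by 3.22 without a call in RPMI8226.

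Of 18 condensin and cohesin genes, 12 were higher, with a median of 0.69; this was 6 without RPMI8226 DMSO replicate 1 or JQ1 replicate 2 and 7 without RPMI8226 DMSO replicate 2, RPMI8226 JQ1 replicate 1, KMS-12 DMSO replicate 2 or either KMS-12 JQ1 library. Condensin subunits were among them, NCAPG at 5.44 (SE 0.76; edgeR, Benjamini-Hochberg adjusted p = 0.00423) and SMC2 at 3.11 (SE 0.39; edgeR, Benjamini-Hochberg adjusted p = 0.00157). Of 19 genes of the anaphase-promoting complex and anaphase, 8 were higher and 1 lower, with a median of 0.20. That count was 3 without RPMI8226 DMSO replicate 2 or JQ1 replicate 1, 4 without JQ1 replicate 1 of KMS-12, and 5 without RPMI8226 DMSO replicate 1 or either KMS-11 JQ1 library. The activator CDC20 was higher by 4.21 (SE 0.52; edgeR, Benjamini-Hochberg adjusted p = 0.000937) and the inhibitor FBXO5 by 2.52 (SE 0.26; edgeR, Benjamini-Hochberg adjusted p = 3.99e-06). ANAPC5, a core subunit, was lower, at -0.42 (SE 0.11; edgeR, Benjamini-Hochberg adjusted p = 0.0142), though it turned to 0.07 with library size alone and its edgeR adjusted p was 0.105 without RPMI8226 DMSO replicate 1. ANAPC11, another core subunit, was higher by 0.56 (SE 0.16; edgeR, Benjamini-Hochberg adjusted p = 0.0222); that call was lost without KMS-12 DMSO replicate 1 (0.0655), JQ1 replicate 1 of KMS-12 (0.0523), RPMI8226 DMSO replicate 2 (0.151) or RPMI8226 JQ1 replicate 1 (0.13). Scaled by library size alone, 15 of the 19 were higher.

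Levels showed where the lines stood before and after JQ1. With DMSO, the median level difference between RPMI8226 and the mean of the KMS lines was -0.20 for origin genes (6 lower of 27), -0.70 for kinetochore genes (10 of 44), -0.51 for mitotic entry genes (7 of 22) and -1.36 for histone genes (30 of 48). Among all genes, 33.6% were higher and 24.5% lower in RPMI8226 with DMSO. With JQ1 the medians were 1.87, 3.62, 3.15 and 1.63, with 22 of 27, 44 of 44, 20 of 22 and 33 of 48 higher, beside 33.6% of all genes higher and 23.0% lower. These levels share their libraries with the contrast and are a description of it.

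**Figure D3:**
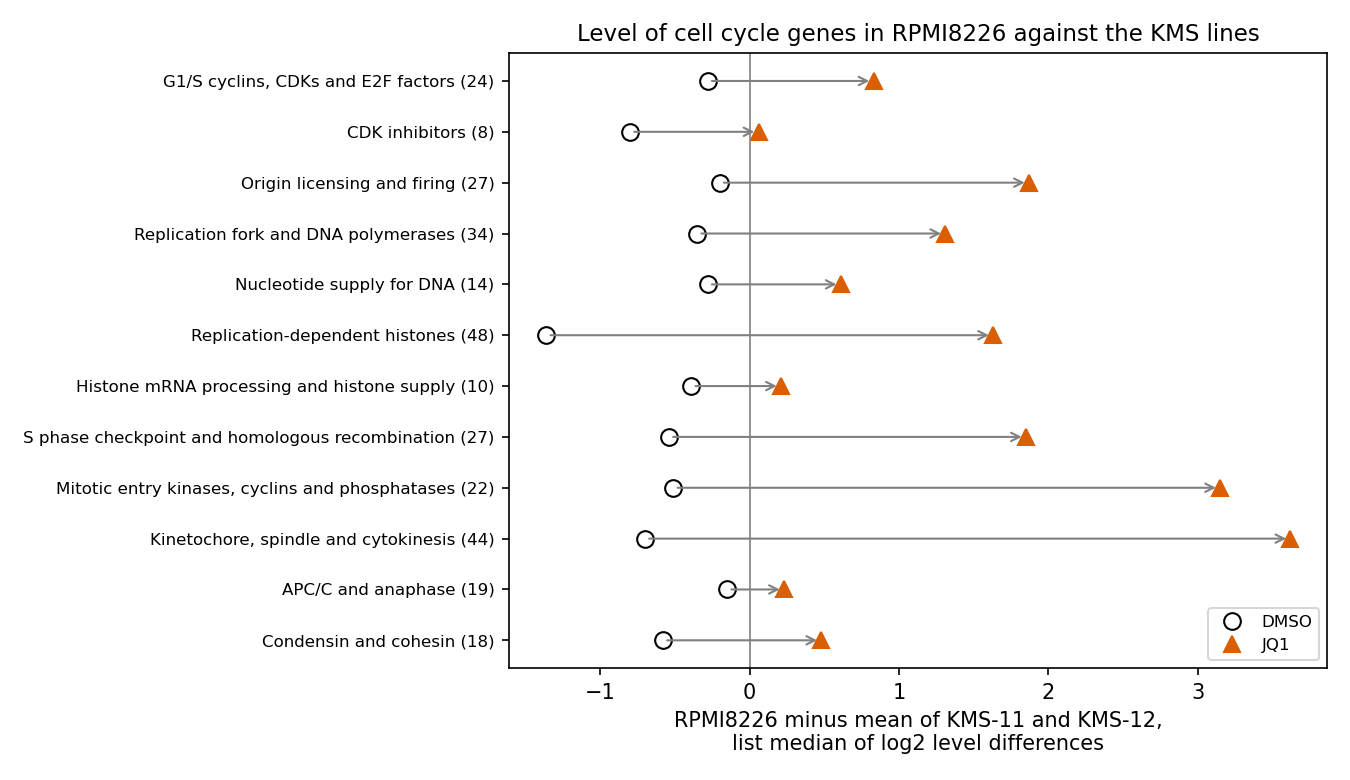
List medians of the log2 level difference between RPMI8226 and the mean of KMS-11 and KMS-12, with DMSO (open circles) and with JQ1 (orange triangles), for 12 cell cycle lists with the number tested in brackets. All lists but CDK inhibitors move from below 0 to at least 0.21 above it; kinetochore genes move from -0.70 to 3.62.

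Of the 125 genes with opposite calls and the RPMI8226 response higher, 64 were in no list. That is a smaller share than over all genes, of which at most 890 of 23493 were in a list. The examples given here were picked from the values. PCLAF, a PCNA-binding factor, gave 3.83 and 7.44 CPM with DMSO and 0.570 and 0.392 with JQ1 in KMS-11, 4.56 and 3.93 against 0.303 and 0.894 in KMS-12, and 7.05 and 6.41 against 17 and 17.5 in RPMI8226. Its KMS JQ1 libraries were the lowest, and its difference was 4.53 (SE 0.41; edgeR, Benjamini-Hochberg adjusted p = 1.1e-06). CDCA7, a chromatin factor of the MYC and E2F networks, differed by 3.81, the uracil glycosylase UNG by 2.68, TONSL, which binds new chromatin at damaged forks, by 2.34, and EME1, a part of the MUS81 nuclease, by 2.82. COLGALT2, a collagen galactosyltransferase, measured 31.9 and 21.5 CPM in the KMS-11 controls and 10.6 and 11.6 with JQ1, 31.7 and 34.1 and then 2.02 and 2.21 in KMS-12, and 0.691 and 1.49 and then 2.95 and 2.79 in RPMI8226. It was at a far lower level in RPMI8226 than in the KMS controls, rose there and fell in the KMS lines, and its difference was 3.98 (SE 0.35; edgeR, Benjamini-Hochberg adjusted p = 5.83e-07).

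The 49 genes that rose in both KMS lines and fell in RPMI8226 held 0 cell cycle genes, and 46 of them were in no list. Both counts were near the shares over all genes. Of the 23493 tested, 295 were in a cell cycle list and at most 890 in any list. The median difference of the 49 genes was -1.97. PLAAT4 (ENSG00000133321, chromosome 11, 63536809 to 63546462, plus strand), a phospholipase that limits growth, had the most negative value of the named genes. It measured 4.83 and 3.51 CPM with DMSO and 1.41 and 0.653 with JQ1 in RPMI8226, against 14.3 and 10.3 and then 66.1 and 60.5 in KMS-11 and 2.85 and 4.04 and then 245 and 209 in KMS-12. The KMS libraries rose by far, in KMS-12 more than in KMS-11, and the RPMI8226 libraries fell from an already low level. The difference was -6.15 (SE 0.36; edgeR, Benjamini-Hochberg adjusted p = 6.39e-07). ZFP36 (ENSG00000128016, chromosome 19, 39406813 to 39409412, plus strand), which binds AU-rich elements and hastens the decay of cytokine RNAs, measured 47 and 60.7 CPM with DMSO and 144 and 166 with JQ1 in KMS-11, 15.8 and 13.2 against 435 and 462 in KMS-12, and 79.4 and 69.8 against 45.5 and 38.6 in RPMI8226. No DMSO library overlapped a JQ1 library of its line. The difference was -4.06 (SE 0.17; edgeR, Benjamini-Hochberg adjusted p = 2.32e-10).

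SAT1 (ENSG00000130066, chromosome X, 23783173 to 23786226, plus strand), the enzyme that acetylates spermidine and spermine for their removal, gave 17.3 and 13.1 CPM in the KMS-11 controls and 28.7 and 29.9 with JQ1, 22.3 and 21.9 and then 65.2 and 66.2 in KMS-12, and 299 and 252 and then 48.3 and 45.7 in RPMI8226. RPMI8226 started at the highest level of all and came down to the range of the KMS lines with JQ1, with a difference of -3.81 (SE 0.15; edgeR, Benjamini-Hochberg adjusted p = 5.55e-11). ELF3, an epithelial ETS factor, also fell from its highest levels in RPMI8226. It measured 16.8 and 24 CPM with DMSO and 10.4 and 9.56 with JQ1 in RPMI8226, against 2.05 and 0.602 and then 7.51 and 4.71 in KMS-11 and 1.21 and 0.946 and then 16 and 14.1 in KMS-12, and differed by -4.02 (SE 0.44; edgeR, Benjamini-Hochberg adjusted p = 5.18e-05). With JQ1 the levels of SAT1 and ELF3 in RPMI8226 differed from the KMS mean by 0.10 and 0.06, neither past the test.

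MCL1 (ENSG00000143384, chromosome 1, 150574551 to 150579738, minus strand), the anti-apoptotic BCL2 relative on which many myeloma cells depend, measured 424 and 420.4 CPM with DMSO and 1018 and 1164 with JQ1 in KMS-11, 325 and 323 against 2393 and 2120 in KMS-12, and 651 and 658 against 518 and 434 in RPMI8226. JQ1 libraries lay above DMSO in both KMS lines and below in RPMI8226, and the difference was -2.54 (SE 0.14; edgeR, Benjamini-Hochberg adjusted p = 3.51e-09). PIM2 (ENSG00000102096, chromosome X, 48913182 to 48919024, minus strand), a serine/threonine kinase that supports plasma cell survival, gave 1914 and 1869 CPM in the KMS-11 controls and 5588 and 6271 with JQ1, 686 and 697 and then 1688 and 1686 in KMS-12, and 1240 and 1115 and then 632 and 604 in RPMI8226. It rose in the KMS lines, fell in RPMI8226, and differed by -2.40 (SE 0.13; edgeR, Benjamini-Hochberg adjusted p = 3.91e-09). PEA15, which binds death effector domains and ERK, had equal rises of 1.91 and 1.91 in the KMS lines, fell by 0.61 in RPMI8226 and differed by -2.52 (SE 0.14; edgeR, Benjamini-Hochberg adjusted p = 5.44e-09). APOL2, a lipid-binding protein, differed by -2.59 and IL10RA, a receptor chain of interleukin 10, by -2.06. CD74, the invariant chain of MHC class II, rose by 0.63 and 1.35 in the KMS lines, fell by 0.48 in RPMI8226 and differed by -1.47 (SE 0.13; edgeR, Benjamini-Hochberg adjusted p = 7.95e-07). The elongation factor ELL had opposite calls as well, with a difference of -1.10 (SE 0.14; edgeR, Benjamini-Hochberg adjusted p = 3.76e-05).

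**Figure D4:**
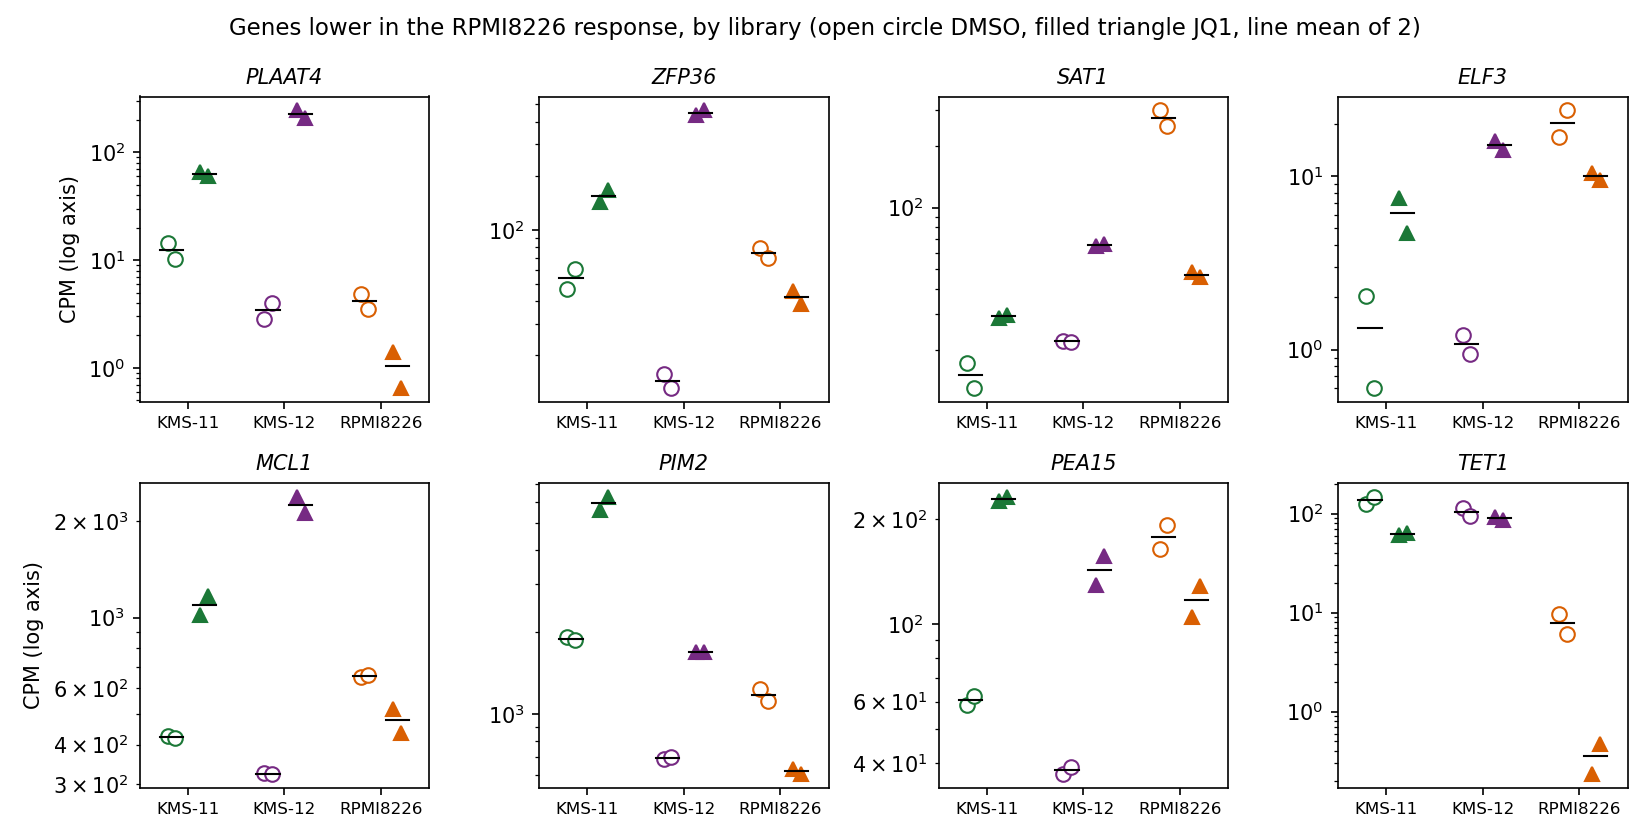
CPM on a log axis in each library for 8 genes with a lower response in RPMI8226 (PLAAT4, ZFP36, SAT1, ELF3, MCL1, PIM2, PEA15 and TET1); open circles are DMSO, filled triangles JQ1, and lines the mean of 2 libraries. In MCL1 the RPMI8226 libraries go from 651 and 658 CPM to 518 and 434, while the KMS-12 libraries go from 325 and 323 to 2393 and 2120.

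Another 73 genes apart and lower fell in RPMI8226 and were not called in either KMS line. RUNX2 (ENSG00000124813, chromosome 6, 45328157 to 45664349, plus strand), a Runt transcription factor known from bone, gave 15.5 and 14.8 CPM with DMSO and 1.88 and 3.03 with JQ1 in RPMI8226, against 54.6 and 56.3 and then 48.4 and 43.5 in KMS-11 and 252 and 249.6 and then 211 and 226 in KMS-12. The KMS changes of -0.27 and -0.20 did not pass, while RPMI8226 fell from a lower start, with a difference of -2.42 (SE 0.18; edgeR, Benjamini-Hochberg adjusted p = 9.1e-08). TET1 (ENSG00000138336, chromosome 10, 68560656 to 68694482, plus strand), which oxidises methylated cytosine, fell in KMS-11 also. It measured 125 and 148 CPM with DMSO and 60.2 and 64.1 with JQ1 in KMS-11, 115 and 93.7 against 92.1 and 86.7 in KMS-12, and 9.62 and 6.04 against 0.234 and 0.475 in RPMI8226, with 13 reads over the RPMI8226 JQ1 group, and differed by -3.81 (SE 0.38; edgeR, Benjamini-Hochberg adjusted p = 1.79e-05). RGS1, a regulator of G protein signalling in B cells, was lower, at -3.10 (SE 0.57; edgeR, Benjamini-Hochberg adjusted p = 0.0135), but lost its call with the replicate block within lines (adjusted p = 0.0753 in edgeR) and without RPMI8226 DMSO replicate 2 (0.0556) or JQ1 replicate 1 or 2 (0.0625 and 0.0719). ITGAL, the integrin chain of LFA-1, fell in every line and most in RPMI8226, at 294 and 318 CPM in the KMS-11 controls and 43.3 and 70.6 with JQ1, 16.1 and 15.6 and then 1.67 and 3.52 in KMS-12, and 116 and 117 and then 3.80 and 6.17 in RPMI8226. Its difference was -2.05 (SE 0.42; edgeR, Benjamini-Hochberg adjusted p = 0.014), and the call was lost without RPMI8226 DMSO replicate 1 (0.0556), DMSO replicate 2 (0.0576) or JQ1 replicate 1 (0.0586). ITGAM, the myeloid integrin chain named among the markers, was lower, at -3.06 (SE 0.40, edgeR, Benjamini-Hochberg adjusted p = 4.54e-05). Its KMS levels were low, at 0.285 to 0.706 CPM and not far above the floor, against 18.2 and 22.3 in RPMI8226 with DMSO. The part of ITGAM in the other falls was not tested.

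Other genes apart and lower rose in the KMS lines, and less or without a call in RPMI8226. NRF2 targets detoxify oxidants and handle iron and haem. Of 21, 12 were lower in the contrast, beside 7.03% of all genes, with a median of -0.55; 10 rose in RPMI8226, against 15 in KMS-11 and 13 in KMS-12. NQO1 (ENSG00000181019, chromosome 16, 69706996 to 69726951, minus strand), a quinone reductase, measured 7.70 and 8.27 CPM with DMSO and 30.8 and 26.2 with JQ1 in RPMI8226, against 17 and 22 and then 136 and 220.4 in KMS-11 and 8.72 and 9.82 and then 172 and 162 in KMS-12. It rose in every line, least in RPMI8226, and differed by -1.85 (SE 0.27; edgeR, Benjamini-Hochberg adjusted p = 0.000958). Haem oxygenase 1 (HMOX1) did the same, with rises of 2.0, 3.27 and 0.93 and a difference of -1.71 (SE 0.24; edgeR, Benjamini-Hochberg adjusted p = 0.000135). Scaled by library size alone, 5 members were lower and 4 higher and the list median was -0.06. SQSTM1, the autophagy receptor p62 that also holds NRF2's inhibitor KEAP1, gave 353 and 505 CPM with DMSO and 1499 and 2219 with JQ1 in KMS-11, 487 and 453 against 4912 and 5516 in KMS-12, and 449 and 477 against 655 and 614 in RPMI8226. The change of 0.45 in RPMI8226 did not pass, and the difference was -2.34 (SE 0.22; edgeR, Benjamini-Hochberg adjusted p = 1.3e-05).

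TXNIP (ENSG00000265972, chromosome 1, 145992435 to 145996600, minus strand), an arrestin that binds thioredoxin and curbs glucose uptake, measured 222 and 346 CPM in the KMS-11 controls and 2083 and 2281 with JQ1, 582 and 737 and then 7243 and 7122 in KMS-12, and 1504 and 1015 and then 3043 and 1939 in RPMI8226. It rose in all lines, by less in RPMI8226, where its controls began higher, and the difference was -2.21 (SE 0.36; edgeR, Benjamini-Hochberg adjusted p = 0.00395). In the NF-kB list 7 of 23 were lower and 1 higher (median -0.45), beside 7.03% and 8.56% of all genes. Only 3 members were apart and lower, and library size alone gave 4 lower and 4 higher (median 0.04) in the NF-kB list. Its feedback inhibitor NFKBIA rose in every line and differed by -0.91 (SE 0.12; edgeR, Benjamini-Hochberg adjusted p = 4.25e-05). NFKBIZ, an IκB protein that acts in the nucleus, was outside the lists; it measured 28.1 and 32 CPM with DMSO and 36.4 and 42.8 with JQ1 in RPMI8226, against 17.5 and 14 and then 101 and 72.8 in KMS-11 and 31.6 and 34 and then 243 and 229 in KMS-12, with a change of 0.39 in RPMI8226 that did not pass and a difference of -2.26 (SE 0.18; edgeR, Benjamini-Hochberg adjusted p = 7.18e-07). Among 25 AP-1 and immediate early genes 9 were lower and 1 higher, with a median of -0.57 (7 and 3 with library size alone). Of the 25, 5 were apart and lower. JUNB rose in both KMS lines and gave 0.09 in RPMI8226, and its difference was -1.40 (SE 0.17; edgeR, Benjamini-Hochberg adjusted p = 3.86e-05). Orphan receptors NR4A1 and NR4A2 fell by 3.07 and 2.07 in RPMI8226, with differences of -2.06 and -2.03. Unlike the genes above, neither rose in the mean of the KMS lines. The NR4A1 response was higher in KMS-12 than in KMS-11 by 2.22 (edgeR, Benjamini-Hochberg adjusted p = 1.77e-05), so its KMS mean joins unlike responses.

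Of 29 plasma cell and B lineage genes 11 were lower and 3 higher (8 and 6 with library size alone), beside 7.03% and 8.56% of all genes. The list median was -0.53 (-0.99 with genes without reads at the floor). IRF4, the factor on which plasma cells depend, measured 825 and 813 CPM with DMSO and 636 and 788 with JQ1 in KMS-11, 1404 and 1441 against 2373 and 2421 in KMS-12, and 1005 and 951 against 562 and 627 in RPMI8226. JQ1 lowered it in RPMI8226, raised it in KMS-12 and left KMS-11 without a call, and the difference was -0.99 (SE 0.14; edgeR, Benjamini-Hochberg adjusted p = 6.66e-05). PRDM1, the factor Blimp-1, rose in both KMS lines and gave 0.32 in RPMI8226, a difference of -1.30 (SE 0.17; edgeR, Benjamini-Hochberg adjusted p = 5.56e-05). MZB1 (ENSG00000170476, chromosome 5, 139387480 to 139390081, minus strand), a chaperone that aids antibody secretion, went the other way. It measured 628 and 487 CPM in the KMS-11 controls and 56.9 and 69 with JQ1, 135 and 121 and then 25.5 and 21.7 in KMS-12, and 1183 and 962 and then 1052 and 819.5 in RPMI8226. Both KMS lines lost most of it, the RPMI8226 libraries overlapped, and the difference was 2.60 (SE 0.20; edgeR, Benjamini-Hochberg adjusted p = 1.1e-06). Of 24 MHC genes 12 were lower and 2 higher (median -0.92), beside 7.03% and 8.56% of all genes, and 18 fell in RPMI8226. With library size alone 7 were lower and 3 higher. HLA-B, a class I heavy chain, fell by 0.57 in RPMI8226 and differed by -1.35 (SE 0.14; edgeR, Benjamini-Hochberg adjusted p = 3.79e-06). Against KMS-11 alone 3 of the 24 were lower, against KMS-12 11, beside 4.72% and 11.1% of all genes.

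Like all genes, of which 11.1% were lower against KMS-12 and 4.72% against KMS-11, the next lists had more lower calls against KMS-12. Of 29 sterol and fatty acid genes 15 were lower in the contrast, beside 7.03% of all genes (9 lower and 5 higher with library size alone). JQ1 raised 23 of the 29 in KMS-12, and lowered 13 in KMS-11 and 16 in RPMI8226. Against KMS-12 22 were lower and 1 higher, against KMS-11 3 and 4. The unfolded protein response and endoplasmic reticulum folding list went the same way: 17 of 31 rose in KMS-12, whereas 29 fell in KMS-11 and 18 in RPMI8226. Of the 31, 7 were lower and 1 higher in the contrast (median -0.33), beside 7.03% and 8.56% of all genes. With library size alone 2 were lower and 8 higher (median 0.16), and DESeq2 gave 12 lower; the lower count was 15 without KMS-11 DMSO replicate 1, 12 without KMS-11 DMSO replicate 2 and 4 without RPMI8226 JQ1 replicate 1, and the higher count 3 without KMS-11 DMSO replicate 2. EIF2AK3, the stress sensor PERK, changed by -0.59 in RPMI8226, beside -0.04 in KMS-11 and 1.92 in KMS-12. Of 39 autophagy and lysosome genes 13 were lower (median -0.36), beside 7.03% of all genes. Library size alone gave 6 lower and 8 higher (median 0.13), and the lower count fell without RPMI8226 DMSO replicate 2. Against KMS-12 23 were lower and against KMS-11 3.

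On the higher side beyond the cell cycle, glycolysis and amino acid genes were called higher in the RPMI8226 contrast more often than lower. Of 33 glycolysis and hypoxia genes 13 were higher and 1 lower, beside 8.56% and 7.03% of all genes, with a median of 0.54. In RPMI8226 11 fell, against 28 in KMS-11 and 11 in KMS-12. The higher count was 6 without RPMI8226 DMSO replicate 1, 7 without DMSO replicate 2 and 8 without JQ1 replicate 1, and the lower count 5 without KMS-11 DMSO replicate 2. Library size alone gave 23 higher, and with no filter beyond 1 read 20. Against KMS-11 20 were higher and 2 lower, beside 6.70% and 4.72% of all genes. Against KMS-12 6 were higher and 5 lower (median -0.05), beside 12.3% and 11.1%. Of the 33, 4 were apart and higher and 1 apart and lower. PFKP, the platelet form of phosphofructokinase, measured 186 and 191 CPM with DMSO and 184 and 180.5 with JQ1 in RPMI8226, against 463 and 558 and then 179 and 173 in KMS-11 and 38.7 and 37.4 and then 13.7 and 11.8 in KMS-12. The change of -0.05 in RPMI8226 did not pass while both KMS lines fell without overlap, and the difference was 1.51 (SE 0.13; edgeR, Benjamini-Hochberg adjusted p = 3.46e-07). Enolase 1 (ENO1) fell in both KMS lines and gave 0.04 in RPMI8226, a difference of 0.81 (SE 0.16; edgeR, Benjamini-Hochberg adjusted p = 0.00207).

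Of 24 ATF4 response and amino acid genes 1 was apart and higher, and 8 were higher in the contrast (14 with library size alone), beside 8.56% of all genes. The list median was 1.18. In KMS-11 19 fell, in KMS-12 14 and in RPMI8226 3. The count was 19 without KMS-11 JQ1 replicate 1 and 15 without JQ1 replicate 2, and it was 4 without RPMI8226 DMSO replicate 1 and 5 without RPMI8226 DMSO replicate 2, RPMI8226 JQ1 replicate 2 or KMS-11 DMSO replicate 2. ATF5, a stress factor related to ATF4, had opposite calls. It measured 545 and 527 CPM with DMSO and 299 and 178 with JQ1 in KMS-11, 77.1 and 74 against 30.2 and 32.1 in KMS-12, and 20.3 and 23.9 against 45.6 and 46.8 in RPMI8226. Levels with DMSO were highest in KMS-11 and lowest in RPMI8226, and JQ1 brought them closer, with a difference of 2.28 (SE 0.24; edgeR, Benjamini-Hochberg adjusted p = 9.08e-05). SLC7A5, the large neutral amino acid transporter, was higher in the contrast by 1.87 (SE 0.27, edgeR, Benjamini-Hochberg adjusted p = 0.00136), but was not apart from both KMS lines. Its KMS-12 minus KMS-11 response was -2.04 (edgeR, Benjamini-Hochberg adjusted p = 0.0015), so its KMS mean joins unlike responses. Among 74 ribosomal protein genes 10 were higher and 1 lower (median 0.21), beside 8.56% and 7.03% of all genes. With library size alone 70 were higher, 30 with MALAT1 and NEAT1 left out as well, 21 with no filter beyond 1 read and 6 with RLE scaling. That count was 16 with the replicate block within lines, 4 without RPMI8226 DMSO replicate 1 or JQ1 replicate 2, 5 without RPMI8226 DMSO replicate 2 or replicate 1 of either KMS-12 group, and 22 without RPMI8226 JQ1 replicate 1.

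**Figure D5:**
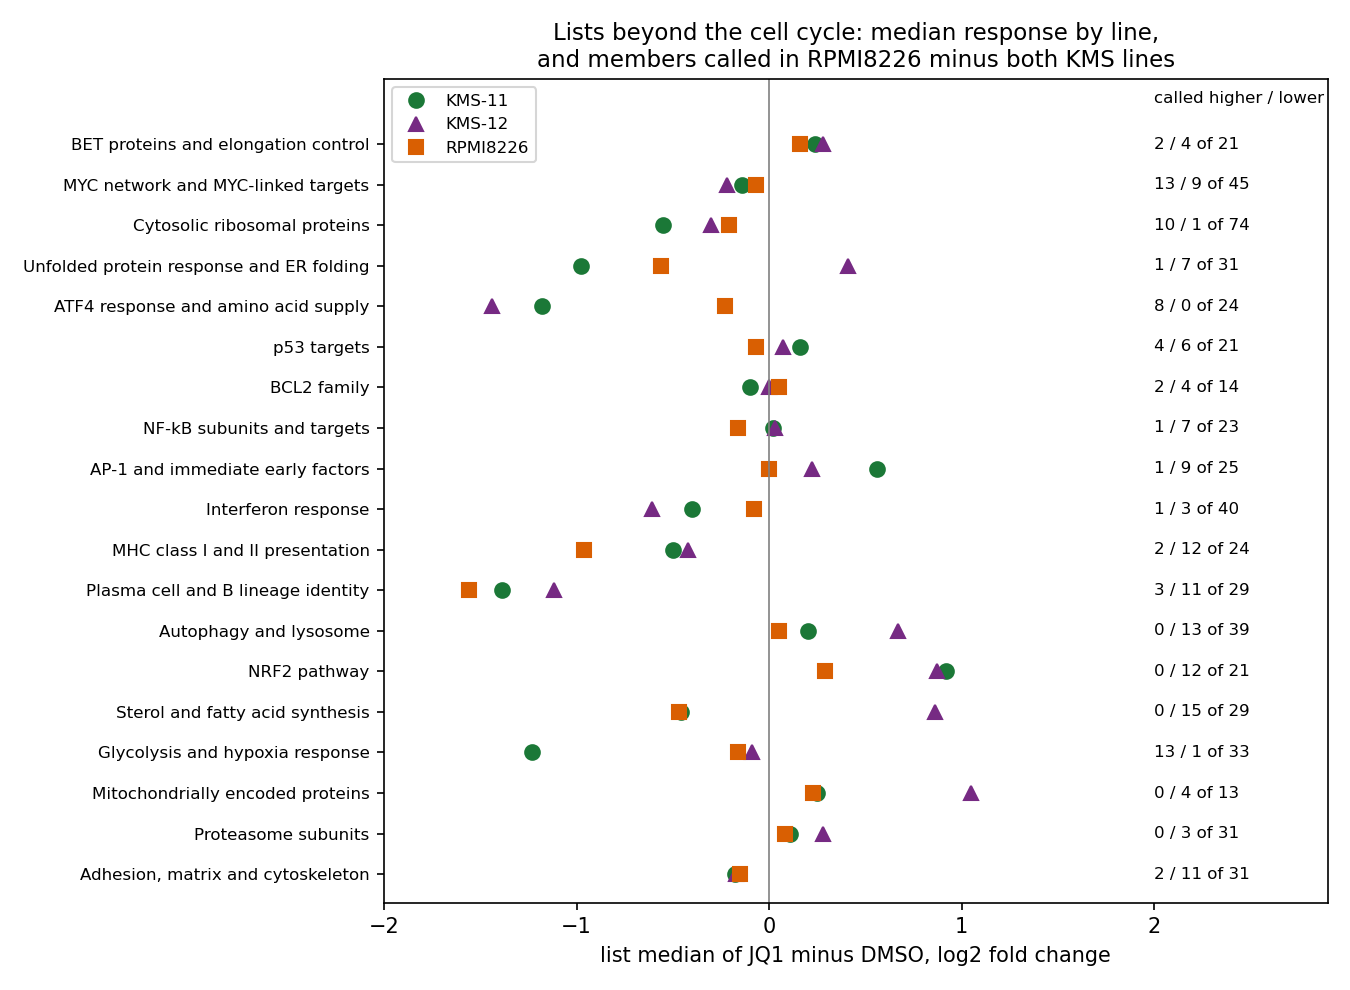
List medians of the JQ1 minus DMSO log2 fold change in KMS-11 (green circles), KMS-12 (purple triangles) and RPMI8226 (orange squares) for 19 lists beyond the cell cycle, with the members called higher and lower in RPMI8226 minus both KMS lines at the right. The sterol list shows RPMI8226 at -0.47 beside KMS-11 at -0.46 and KMS-12 at 0.86; the ATF4 list shows RPMI8226 at -0.23 with both KMS lines below -1.

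The BCL2 family governs apoptosis. Of its 14 genes, 4 were lower and 2 higher, beside 7.03% and 8.56% of all genes. The higher count was 1 without any of the KMS-12 libraries, either RPMI8226 DMSO library or RPMI8226 JQ1 replicate 1, and 7 with library size alone. BIM (BCL2L11) and BMF, which promote apoptosis, were lower like MCL1: BCL2L11 rose in all lines and differed by -1.05 (SE 0.14; edgeR, Benjamini-Hochberg adjusted p = 5.01e-05), while BMF rose in the KMS lines, gave -0.12 in RPMI8226 and differed by -1.03 (SE 0.12; edgeR, Benjamini-Hochberg adjusted p = 2.03e-05). HRK, another pro-apoptotic member, measured 26.1 and 22 CPM in the KMS-11 controls and 20.01 and 14.3 with JQ1, 17.8 and 20.6 and then 1.26 and 2.31 in KMS-12, and 4.49 and 3.10 and then 13.4 and 9.97 in RPMI8226. It rose in RPMI8226, fell in KMS-12 and was not called in KMS-11, and its difference was 3.59 (SE 0.32; edgeR, Benjamini-Hochberg adjusted p = 1.15e-06). FAS, a death receptor counted with the p53 targets, rose in KMS-11 and RPMI8226 and fell in KMS-12, and its contrast was 2.08 (SE 0.15; edgeR, Benjamini-Hochberg adjusted p = 6.88e-08). Against KMS-11 alone its response was lower, at -0.82, and against KMS-12 higher, at 4.99.

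HEXIM1, MYC and FLI1 were not called in the contrast. HEXIM1 (ENSG00000186834, chromosome 17, 45148502 to 45152101, plus strand), the inhibitor of the elongation kinase P-TEFb that rises when BET proteins are blocked, measured 20.7 and 19.9 CPM with DMSO and 114 and 88.1 with JQ1 in RPMI8226, against 23.4 and 20.3 and then 121 and 119.7 in KMS-11 and 24.6 and 21.3 and then 181 and 198 in KMS-12. It rose by 2.32 in RPMI8226, 2.46 in KMS-11 and 3.04 in KMS-12, without overlap in any line. The contrast was -0.43 (SE 0.15; edgeR, Benjamini-Hochberg adjusted p = 0.0623) and did not pass, though it did with RLE scaling (0.0402), with no filter beyond 1 read (0.0244), with the replicate block over all lines (0.0374) or within lines (0.0245) and without KMS-11 DMSO replicate 1 (0.0234) or RPMI8226 JQ1 replicate 1 (0.00953), and it turned to 0.05 with library size alone. MYC, a target of JQ1 in many myeloma lines, measured 477 and 359 CPM with DMSO and 362 and 240.5 with JQ1 in KMS-11, 384 and 349 against 205 and 192 in KMS-12, and 529 and 437 against 345 and 312 in RPMI8226. It fell in KMS-12 and RPMI8226, did not pass in KMS-11 at -0.47, and its contrast was 0.12 (SE 0.23; edgeR, Benjamini-Hochberg adjusted p = 0.875), within a standard error of 0. FLI1, the ETS factor of the series title, gave -0.47 (SE 0.18; edgeR, Benjamini-Hochberg adjusted p = 0.0833) and passed with the replicate block within lines (0.00477) and without KMS-11 DMSO replicate 2 (0.00551) or JQ1 replicate 1 (0.0361), with 0.01 under library size alone. Of 21 BET and elongation genes 4 were lower and 2 higher, beside 7.03% and 8.56% of all genes. The replicate block within lines gave 7 lower, and library size alone gave 13 higher and 1 lower. Leaving out single libraries moved the higher count both up and down. MALAT1 rose less in RPMI8226, by 0.60 against 2.29 and 2.36 in the KMS lines, and its difference was -1.73 (SE 0.20; edgeR, Benjamini-Hochberg adjusted p = 9.51e-06).

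The remaining lists had few calls, or calls that moved with the libraries. Of 45 genes of the MYC network 13 were higher and 9 lower, beside 8.56% and 7.03% of all genes. Library size alone gave 28 higher, and with MALAT1 and NEAT1 left out as well 20 higher and 3 lower; the higher count was 8 without RPMI8226 DMSO replicate 1, and the lower count 5 without that library or RPMI8226 JQ1 replicate 2. Of 40 interferon response genes 1 was higher and 3 lower, with 11 higher without RPMI8226 JQ1 replicate 2 and 13 lower without RPMI8226 JQ1 replicate 1, so no direction is given. In the adhesion and matrix list 11 of 31 genes were lower and 2 higher, beside 7.03% and 8.56% of all genes, and 5 and 5 with library size alone. The lower count there was 6 without RPMI8226 DMSO replicate 1 and 7 without RPMI8226 JQ1 replicate 1, and the higher count 5 and 4 without KMS-11 DMSO replicates 1 and 2. Of 21 p53 targets 4 were higher and 6 lower, beside 8.56% and 7.03% of all genes, against 9 and 3 with library size alone. Of 31 proteasome subunits 3 were lower, beside 7.03% of all genes, while library size alone gave 15 higher.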

How the data were processed

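Raw read counts per gene for 12 libraries were deposited by the authors in 1 table of 60666 gene IDs. The submitters' processing notes list hg38 and GRCh38.p13 as builds and DESeq2 and MACS2 as tools, with no role for each. Aligner, annotation and strand setting: not given in the sources used here. Symbols came from a list of gene names with their older symbols, and gene positions from GENCODE 29. Groups came from the labels. Totals were 15424512 to 27366499 counts per library, which sets the precision of low genes.

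One edgeR 4.0.16 quasi-likelihood model (R 4.3.3, TMM scaling, filterByExpr, robust) with 6 group means was fitted to 23493 genes, with Benjamini-Hochberg adjustment over all of them and a threshold of 0.05. The contrast was the RPMI8226 response minus the mean of the KMS responses. On simulated counts (22596 genes) this contrast recovered 13.4% of 1.5-fold, 47.8% of 2-fold and 78.8% of 4-fold changes. Of 109 calls 14.7% were false, above the threshold of 0.05. The simulated lines shared a JQ1 response, with only 67, 67 and 66 genes changed in RPMI8226, so these shares need not hold for the data. Replicate numbers were checked for pairing within a line: deviations of same-numbered DMSO and JQ1 libraries correlated at 0.158, 0.102 and 0.375 over 10130 genes, so a replicate block within lines was run as an alternative. Other alternatives were scaling, filters, DESeq2 1.42.0, limma-voom (limma 3.58.1) and leaving out each library. The members, gene lists and named genes were chosen with earlier results of these data known; the named genes were the 10 largest changes in each direction among genes apart from both KMS lines and among those with opposite calls (mean of at least 1 CPM in every line), up to 6 members of each cell cycle list and 4 of each other list with the smallest adjusted p (mean of at least 1 CPM over all libraries), and a set of regulators always included; others were chosen after their values were seen. Promoters came from a RefSeq table (GRCh38.p14), in which 27305 genes had a start.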

Additional observations from a re-analysis of the deposited data

Results flagged for a closer look

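For 11 named genes both KMS lines were called with opposite signs and differed by the test of KMS-12 minus KMS-11, so the KMS mean stands for neither line. The largest gap was that of FAS, at -5.81, where KMS-11 changed by 1.12 and KMS-12 by -4.69, beside 0.30 in RPMI8226. CDKN1A gave 5.08, from -0.61 and 4.48, beside 0.08 in RPMI8226. BIRC3, an inhibitor of apoptosis, gave -3.82, from 3.51 and -0.31, beside -0.16. CCND1 gave -2.44, from 1.59 and -0.85, beside -1.29. The chaperones P4HB and CALR gave 3.46 (-1.24 and 2.22, beside -0.37) and 2.27 (-0.66 and 1.61, beside -0.13). MSMO1, a sterol enzyme, gave 1.31 (-0.45 and 0.86, beside -1.32), and ASF1A, a histone chaperone, -1.27 (0.58 and -0.70, beside 0.44). MYEOV gave 2.44 (-1.04 and 1.41, beside -2.06), COL24A1 1.56 (-0.84 and 0.71, beside -2.38) and PLIN2 2.70 (-1.17 and 1.53, beside -4.77, with 6 reads in its lowest group).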

How the results depend on the processing

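With library size alone, 7214 genes were higher and 574 lower, 2261 and 173 were apart, and 287 and 27 had opposite calls. With MALAT1 and NEAT1 left out and library size alone, an alternative chosen after seeing the data, 3267 were higher, 1017 lower and 316 apart and lower. The replicate block within lines gave 208 and 75 opposite calls. Leaving out 1 library at a time gave 1329 to 2263 higher, 1082 to 2289 lower, 459 to 957 apart and higher, 305 to 649 apart and lower, and 53 to 272 and 29 to 73 opposite calls. RLE scaling gave 1854 and 1880, DESeq2 1733 and 1867, and limma-voom 2057 and 2111. Of 6192 values of named genes under the alternatives, 6025 kept their side of the threshold, 112 lost and 54 gained the call. The 6025 include genes called in neither fit whose sign changed, as that of HEXIM1 did with library size alone (0.05). ANAPC5 lost its call and changed sign with library size alone (0.07). The cause was not tested. Depth limits genes with few reads in a group.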
